A study of Mus musculus with 21 samples.

Results

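The primitive endoderm is the sheet of cells that separates from the epiblast in the late blastocyst, and embryonic stem cell cultures hold a small amount of RNA from its genes. Expression of 10 such genes was followed here. They were the transcription factors Gata4, Gata6, Sox17, Sox7 and Foxa2 and the growth factor receptor Pdgfra. The others were the endocytic receptor genes Cubn, Amn and Lrp2 and their adaptor gene Dab2. The 10 genes were taken by symbol from the count table, in which each had a row among 22512 genes. All 10 passed the filter on low counts. The set was chosen by the values of Pdgfra and Cubn in Experiment 1, since these were among the genes with the largest decreases in the untransfected knockout cells. Values of the 10 genes in Experiment 1 are therefore given as a description with no test. These genes were tested only in the libraries of Experiment 2. The Pdgfra and Cubn values that made the choice do not come from those libraries, but earlier results of these data were known. If both experiments used the same knockout lines, Experiment 2 is not an independent test of this choice. Gata4, Gata6, Sox17, Pdgfra, Cubn, Dab2 and Lrp2 were lower in the Trim71 knockout cells of both experiments, whereas Sox7 was not.

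All libraries were from mouse embryonic stem cells of 129S6/SvEvTac background that carry the GFP_5xT71BS reporter and a stably transfected FLAG-Cas9::T2A::Blasticidin construct, so the controls carry these as well. Cells were kept on gelatin in medium with serum and LIF, a cytokine that holds stem cells undifferentiated. Each of the 7 groups had 3 libraries. In Experiment 1 none was transfected: W are the unedited cells, Trim71KO are Trim71-/- and Ago2KO are Ago2-/-. In Experiment 2 the unedited cells received pCIP FH-T6B_WT::mCherry (T6B_WT) or pCIP FH-T6B_MUT::mCherry (T6B_MUT). Trim71-/- and Ago2-/- cells with empty plasmid are named Trim71KO_empty and Ago2KO_empty here. TRIM71 is an RNA-binding protein that silences target mRNAs, AGO2 is the Argonaute that carries microRNAs, and T6B is an Argonaute-binding peptide from a GW182/TNRC6 protein that displaces the endogenous one. T6B_MUT was the control in Experiment 2. It differs from the knockout groups in genotype and in plasmid, and these cannot be told apart. The labels do not say whether a knockout line was derived from a single clone. The study's design text calls the replicates biological but does not say that they were separate cultures or lines, so p-values measure the spread between these libraries.

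In the embryo, FGF4 from epiblast cells signals through FGF receptors and ERK to switch inner cells toward primitive endoderm. GATA6 is the first of the lineage's transcription factors, is repressed by NANOG, and is followed by SOX17, GATA4 and SOX7. PDGFRA, a receptor tyrosine kinase, marks these cells early and supports their survival. Later, the visceral endoderm takes up maternal protein through cubilin and megalin: CUBN binds the ligand, AMN anchors CUBN in the membrane, LRP2 (megalin) is the large endocytic receptor, and DAB2 is the adaptor that links megalin to clathrin.

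Libraries held 29.6 to 50.8 M counts in Experiment 1 and 33.9 to 57.9 M in Experiment 2. The standard error of log2 fold changes had medians of 0.11 to 0.13 in the comparisons. The defining markers of embryonic stem cells were abundant in every library: the summed level of 8 epiblast genes was 3111 to 3354 CPM in W (read counts relative to the TMM-scaled library size), beside 111 to 125 CPM for the 10 primitive endoderm genes. In bulk RNA, fewer cells of a type and less RNA per cell cannot be told apart. Ago2 mRNA in Ago2KO was 29.5% of W. In the libraries labelled Ago2KO_empty it was 87.4, 166.6 and 45.6 CPM against 113.4, 142.9 and 111.6 in T6B_MUT, so that Ago2 did not separate these groups. Trim71 mRNA was 429 CPM in Trim71KO against 608 in W and 402 in Trim71KO_empty against 492 in T6B_MUT. An mRNA level need not show an edit, and where the edits lie is not given in the sources used here.

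Per exon length, in deposited RPKM, Lrp2 was the highest of the set in W, at 3.79 ± 0.41 RPKM (SD, n = 3), and Gata4 followed at 1.71 ± 0.16 RPKM. Pdgfra stood at 1.15 ± 0.04 RPKM. Gata6, Amn, Dab2, Cubn and Sox17 came next, with means from 1.03 down to 0.839 RPKM, and neighbours in this order did not differ beyond their spread. Sox7 at 0.609 ± 0.092 RPKM and Foxa2 at 0.343 ± 0.020 RPKM were the lowest. Lrp2 was first in all 7 groups. Sox7 moved most in the order: it was 9 of 10 in W, but 2 of 10 in Trim71KO and 3 of 10 in Trim71KO_empty.

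**Figure D1:**
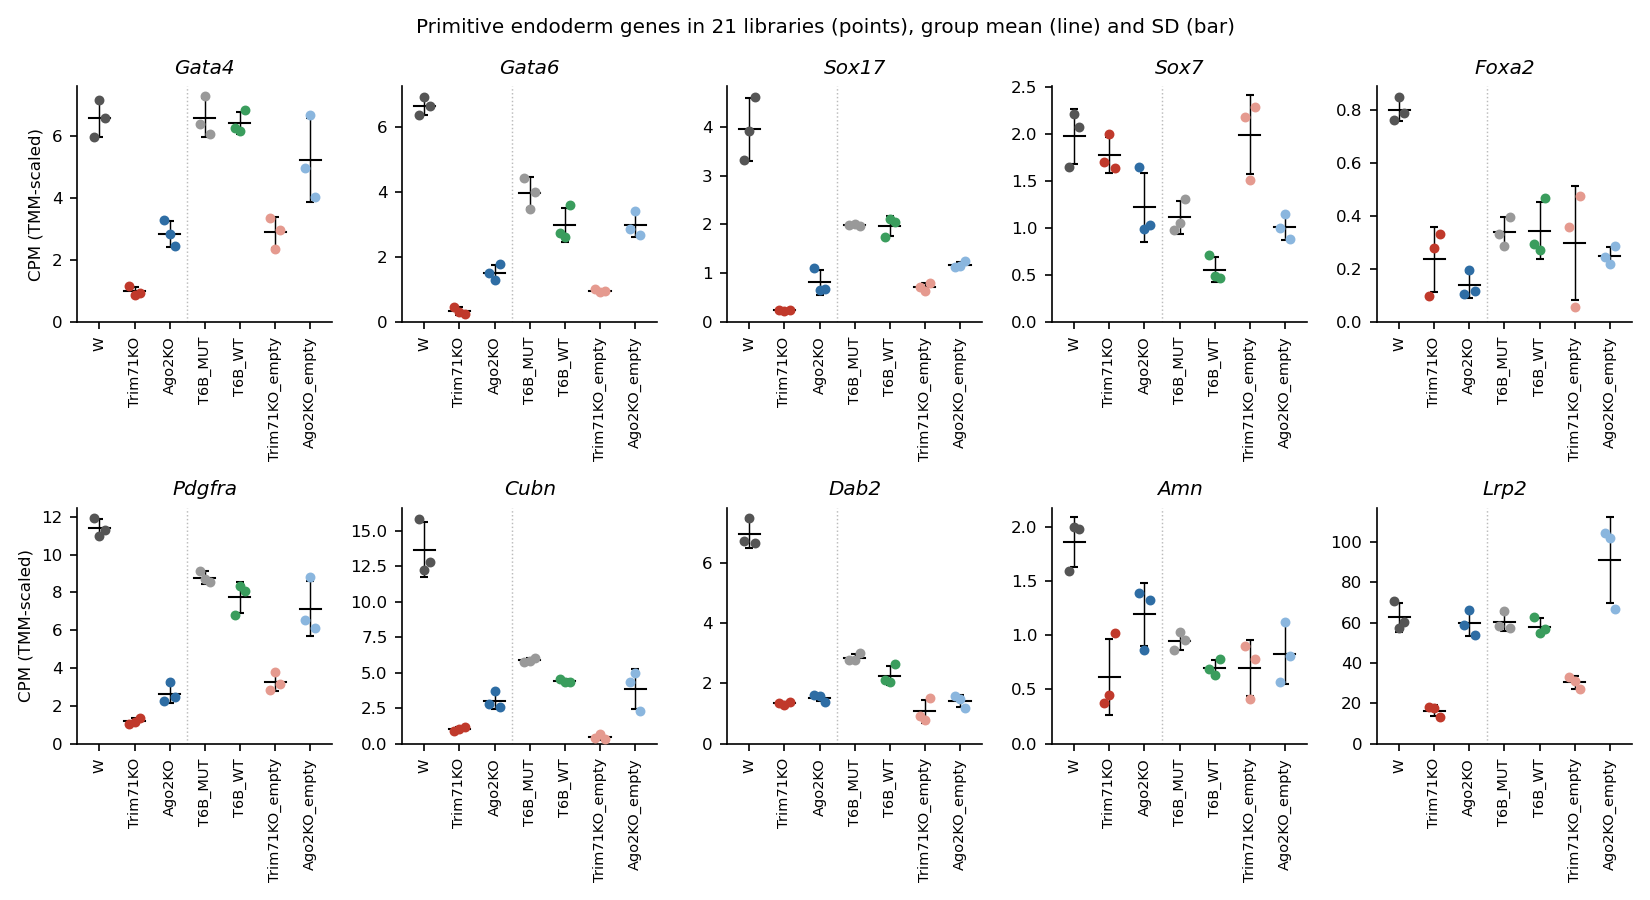
CPM on TMM-scaled library sizes (vertical axes, each from 0) of the 10 primitive endoderm genes in the 7 groups (horizontal axes). Points are libraries, long lines group means and bars 1 SD (n = 3), and the dotted line separates Experiment 1 from Experiment 2, which were scaled separately. Gata6 lies between 6.36 and 6.92 CPM in W and between 0.25 and 0.48 CPM in Trim71KO, while Sox7 overlaps between these groups.

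Gata6 and Sox17 had the lowest levels of the set relative to W in untransfected Trim71 knockout cells. Gata6 (chromosome 18, 11052064 to 11085635, plus strand; coordinates are GENCODE M21 on GRCm38) was at 6.36, 6.92 and 6.63 CPM in W, 0.477, 0.306 and 0.250 CPM in Trim71KO and 1.5, 1.29 and 1.78 CPM in Ago2KO. The 3 groups do not overlap, and Trim71KO is the lowest. By the fitted fold change, Gata6 was 19.4-fold below W in Trim71KO and 4.29-fold below W in Ago2KO. Sox17 (chromosome 1, 4490931 to 4497354, minus strand) was at 3.33, 3.92 and 4.62 CPM in W, 0.251, 0.222 and 0.250 CPM in Trim71KO and 1.11, 0.660 and 0.684 CPM in Ago2KO. These groups do not overlap either, and by the fitted fold changes they lay 16.1-fold and 4.74-fold below W. Gata4 (chromosome 14, 63198922 to 63271692, minus strand) was at 5.97, 7.17 and 6.57 CPM in W, 1.15, 0.889 and 0.936 CPM in Trim71KO and 3.28, 2.84 and 2.44 CPM in Ago2KO. Gata4 was the GATA factor less reduced in Ago2KO, at 43.4% of W, while Gata6 was at 22.9%.

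Sox7, a close relative of Sox17 (chromosome 14, 63943673 to 63950732, plus strand), was the exception. Its level was 1.65, 2.21 and 2.08 CPM in W and 1.71, 2.00 and 1.64 CPM in Trim71KO, and the groups overlap. In Ago2KO it was 1.65, 0.991 and 1.04 CPM, with 1 library only just under the lowest W value and the others well below it. Foxa2, a pioneer factor of endoderm (chromosome 2, 148042877 to 148046969, minus strand), rested on few reads: 37, 40 and 38 counts in W, 4, 10 and 16 in Trim71KO and 5, 6 and 6 in Ago2KO. Both knockouts lie below W without overlap.

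Pdgfra and Cubn were the receptor genes whose decreases chose the set. Pdgfra (chromosome 5, 75152292 to 75198215, plus strand) was at 11.9, 11 and 11.3 CPM in W, 1.03, 1.17 and 1.37 CPM in Trim71KO and 2.25, 3.24 and 2.46 CPM in Ago2KO. Cubn (chromosome 2, 13276338 to 13491813, minus strand) was at 15.9, 12.3 and 12.8 CPM in W, 0.879, 1.00 and 1.14 CPM in Trim71KO and 2.76, 3.70 and 2.62 CPM in Ago2KO. For both genes the 3 groups are apart, with Ago2KO between the others. By the fitted fold changes, Trim71KO was 9.50-fold (Pdgfra) and 13.4-fold (Cubn) below W. Dab2 (chromosome 15, 6299788 to 6440712, plus strand) was at 6.71, 7.49 and 6.65 CPM in W, 1.36, 1.28 and 1.37 CPM in Trim71KO and 1.61, 1.59 and 1.39 CPM in Ago2KO, which lay only just above Trim71KO. Amn (chromosome 12, 111271095 to 111276426, plus strand) was at 33.1% of W in Trim71KO and 64.3% in Ago2KO. Lrp2 (chromosome 2, 69424340 to 69586065, minus strand) parted from its partner Cubn in Ago2KO: it was at 70.5, 57.2 and 60.1 CPM in W, 18.1, 17.5 and 13.3 CPM in Trim71KO and 58.8, 66.5 and 54.1 CPM in Ago2KO. Ago2KO thus overlaps W for Lrp2, whereas Trim71KO is 3.85-fold below.

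Over the set, 9 of 10 genes lay below W without overlap in Trim71KO (21.6% of all genes tested did so) and 9 of 10 in Ago2KO (16.4% of all genes). None lay above W without overlap (22.8% and 17.8% of all genes). The gene that overlapped was Sox7 in Trim71KO and Lrp2 in Ago2KO. The median log2 fold change was -2.55 in Trim71KO and -2.12 in Ago2KO. Both comparisons use the same W libraries and both served to choose the set, so nothing is read from these counts.

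Start regions are shown for Cubn and Pdgfra, on which the choice turned, and for the first of 2 Dab2 windows. That Dab2 window holds letters bound by GATA factors. RefSeq windows on GRCm38 of 300 bases, from 250 before to 50 after a transcript start, were matched for 6 of the 10 genes (Cubn, Pdgfra, Dab2, Lrp2, Amn and Foxa2). The letters AGATAA as well as TGATAA, and likewise AGATAG as well as TGATAG, were searched on both strands, and capitals mark a match as it reads on the printed strand. The sequences run 5′ to 3′ in the direction of transcription, on the minus strand for Cubn.
Cubn, chr2:13491827-13492126: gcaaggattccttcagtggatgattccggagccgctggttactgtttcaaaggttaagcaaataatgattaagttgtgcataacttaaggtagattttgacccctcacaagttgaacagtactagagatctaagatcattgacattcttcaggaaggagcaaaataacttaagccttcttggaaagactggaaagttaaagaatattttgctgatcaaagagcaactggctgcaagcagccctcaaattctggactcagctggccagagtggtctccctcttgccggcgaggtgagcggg
Pdgfra, chr5:75152001-75152300: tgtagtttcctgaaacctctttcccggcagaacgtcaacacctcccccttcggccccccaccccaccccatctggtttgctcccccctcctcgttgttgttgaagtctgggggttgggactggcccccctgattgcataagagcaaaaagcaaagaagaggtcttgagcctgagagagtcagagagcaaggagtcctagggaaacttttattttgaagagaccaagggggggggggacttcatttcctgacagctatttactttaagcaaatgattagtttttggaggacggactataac
Dab2, chr15:6299539-6299838: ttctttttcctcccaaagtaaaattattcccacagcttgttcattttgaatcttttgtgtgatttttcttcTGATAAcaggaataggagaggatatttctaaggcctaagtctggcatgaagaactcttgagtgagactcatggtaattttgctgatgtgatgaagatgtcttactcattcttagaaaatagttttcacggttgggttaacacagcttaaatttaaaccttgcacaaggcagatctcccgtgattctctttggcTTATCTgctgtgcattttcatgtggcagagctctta
This Dab2 window has TGATAA on the plus strand at position -179 and AGATAA on the minus strand at position 14, counted from the transcript start. At least 1 of these letters stood in 29.64% of the 32534 promoter windows in the RefSeq table. The second Dab2 window (chr15:6386498-6386797) had none, nor did those of Cubn, Pdgfra, Lrp2 and Amn, while 1 of 3 Foxa2 windows had 1. The share of G and C was 37.67% in the first Dab2 window and 59.33% in the second, 44.33% in Cubn, 51% in Pdgfra and 65% in Lrp2, and the median of all windows was 53%. Letters read by SOX factors (ACAATA, or ACAATG, or ACAATT; in 25.9% of all windows) and by FOX factors (TGTTTAC or else TGTTTGC; in 8.496%) were in none of these windows on either strand, and TATAAA (in 13.57%) was in 1 Foxa2 window. None of the letters searched for SOX, FOX or TATAAA overlapped a GATA match. These are descriptions of sequence, and no binding was measured.

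In transfected Trim71 knockout cells, 7 of the 10 genes were lower than in T6B_MUT and 1 was higher by edgeR's quasi-likelihood test at an adjusted p under 0.05. Of all genes tested in this comparison, 27.8% were called in either direction, 13.4% lower and 14.4% higher. The libraries of the groups did not overlap for the same 8 genes, 7 lower and 1 higher (22.5% and 22.9% of all genes). The median log2 fold change was -1.29 over the set and 0.00 over all genes. Genes of every role fell: Cubn, Gata6, Sox17, Pdgfra, Dab2, Gata4 and Lrp2. The same 7 and 1 genes were called in each of the 12 alternative analyses.

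Cubn fell most. It was at 5.77, 5.80 and 6.03 CPM in T6B_MUT and 0.412, 0.672 and 0.307 CPM in Trim71KO_empty, which is 16, 23 and 11 counts. The log2 fold change was -3.67 with a standard error of 0.28 (edgeR adjusted p = 1.89e-07). Gata6 fell from 4.44, 3.48 and 4.0 CPM to 1.00, 0.934 and 0.949 CPM, a log2 fold change of -2.04 ± 0.18 (SE, edgeR adjusted p = 9.81e-08). Pdgfra fell from 9.15, 8.68 and 8.52 CPM to 2.83, 3.77 and 3.15 CPM (log2 fold change -1.44 ± 0.14, edgeR adjusted p = 5.26e-07). For each of these 3 genes every Trim71KO_empty library lies below every T6B_MUT library.

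Sox17 fell to 36.4% of T6B_MUT, Dab2 to 37.7% and Gata4 to 44.0%, with log2 fold changes of -1.45 ± 0.18, -1.41 ± 0.20 and -1.17 ± 0.16 (SE) and edgeR adjusted p of 6.66e-06, 3.95e-05 and 2.83e-05. The megalin gene Lrp2 fell from 58.1, 65.6 and 57.5 CPM to 33.3, 31.2 and 26.9 CPM (log2 fold change -0.99 ± 0.16, edgeR adjusted p = 0.000815). Sox7 went the other way, from 0.981, 1.06 and 1.32 CPM to 2.19, 1.52 and 2.29 CPM, a log2 fold change of 0.83 ± 0.21 (SE, edgeR adjusted p = 0.00533). The Sox7 groups do not overlap. Amn (log2 fold change -0.43 ± 0.28, edgeR adjusted p = 0.273) and Foxa2 (-0.19 ± 0.44, edgeR adjusted p = 0.792) did not pass the test. Foxa2 had only 14, 2 and 17 counts in Trim71KO_empty.

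**Figure D2:**
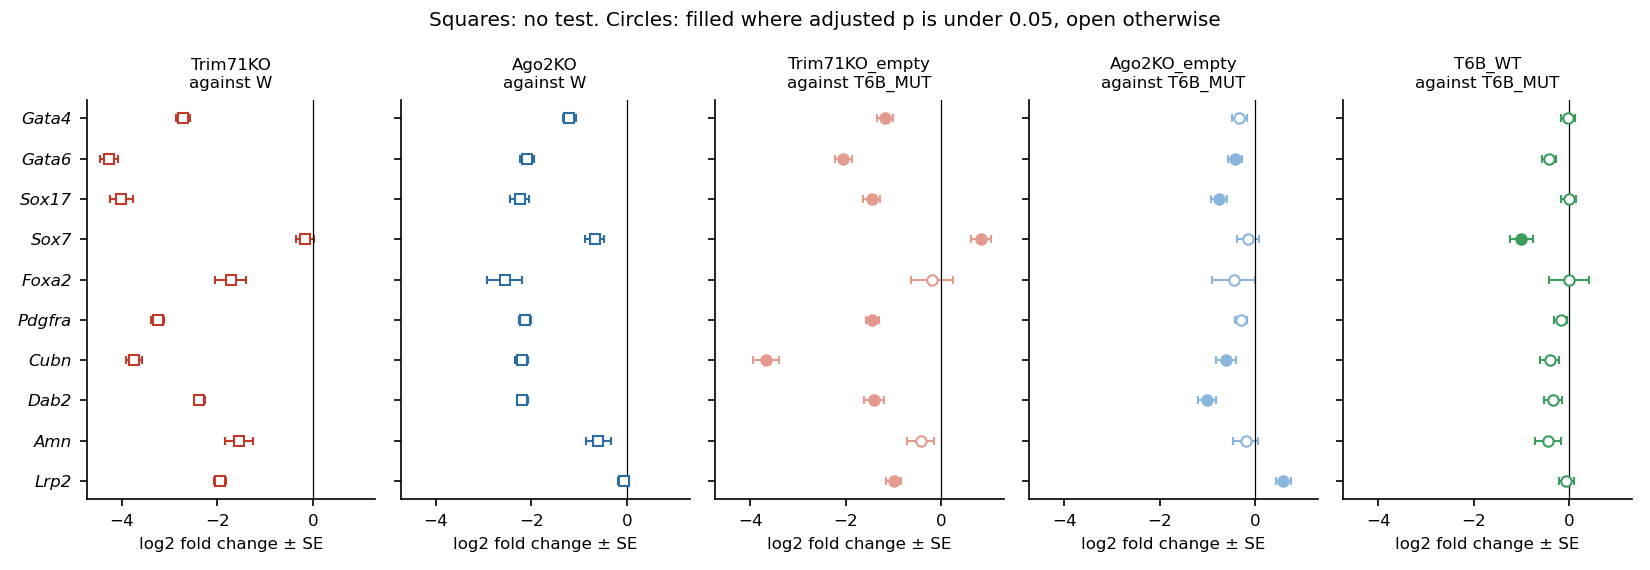
Log2 fold changes (horizontal axes) with standard errors of the 10 primitive endoderm genes (rows) in 5 comparisons with a control. Squares carry no test, and filled circles mark an edgeR adjusted p under 0.05. Cubn is at -3.75 in Trim71KO and -3.67 in Trim71KO_empty, while Sox7 is at -0.16 and 0.83.

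In the libraries labelled Ago2KO_empty the set split. Dab2, Sox17, Cubn and Gata6 were lower than in T6B_MUT and Lrp2 was higher, which is 4 and 1 of 10 genes, where 28.8% of all genes were called, 12.4% lower and 16.4% higher. The groups did not overlap for 5 lower genes and 1 higher gene (20% and 22% of all genes). Dab2, the megalin adaptor, fell from 2.79, 2.76 and 3.00 CPM to 1.57, 1.48 and 1.19 CPM (log2 fold change -1.01 ± 0.19, edgeR adjusted p = 0.000819). Sox17 fell from 1.98, 2.01 and 1.97 CPM to 1.13, 1.15 and 1.25 CPM (-0.76 ± 0.16, edgeR adjusted p = 0.00213). Neither gene overlaps between the groups, and these 2 passed the test in every alternative analysis. Lrp2 rose from 58.1, 65.6 and 57.5 CPM to 104.6, 101.7 and 66.6 CPM, a log2 fold change of 0.59 ± 0.15 (SE, edgeR adjusted p = 0.0151), with the third library only just above the highest T6B_MUT value.

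The calls of Cubn (log2 fold change -0.61 ± 0.20, edgeR adjusted p = 0.0375) and Gata6 (-0.41 ± 0.15, edgeR adjusted p = 0.0451) were close to the threshold. Over the alternatives the adjusted p ran from 0.00336 to 0.120 for Cubn, from 0.0194 to 0.161 for Gata6 and from 1.20e-06 to 0.0678 for Lrp2. Gata4 (-0.33 ± 0.15, edgeR adjusted p = 0.110) and Pdgfra (-0.30 ± 0.13, edgeR adjusted p = 0.0911) did not pass, nor did Amn, Foxa2 and Sox7. With Ago2KO_empty replicate 2 left out, Gata4 (log2 fold change -0.56, edgeR adjusted p = 0.00631) and Pdgfra (-0.49, edgeR adjusted p = 0.00579) were called as well and Lrp2 was not (0.48, edgeR adjusted p = 0.0567), so that 6 genes were lower and 0 higher. Without replicate 3 of that group, 2 were lower and 1 higher. Leaving out replicate 1 or 3 of T6B_MUT left Dab2 and Sox17 alone called, and so did a fit of the 2 groups alone. Without Ago2KO_empty replicate 1, or with the replicate number as a block, Gata6 was not called, and without T6B_MUT replicate 2, Cubn was not.

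These 3 libraries differ among themselves. Relative to the T6B_MUT mean, Ago2 was at 71.3%, 135.8% and 37.2% in replicates 1, 2 and 3. Cubn was at 73.6%, 84.9% and 39.0%, Gata4 at 75.6%, 101.5% and 61.2%, and Gata6 at 72.2%, 86.1% and 67.4%. Those 3 genes, Pdgfra and Sox7 were highest in replicate 2 and lowest in replicate 3, the order of Ago2 itself: 5 of 10 genes, beside 24.7% of the 21505 genes tested. Dab2, at 55.1%, 51.9% and 42.0%, and Sox17, at 56.7%, 57.8% and 62.6%, were low in all 3. The part of the Ago2 level in these differences was not tested.

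**Figure D3:**
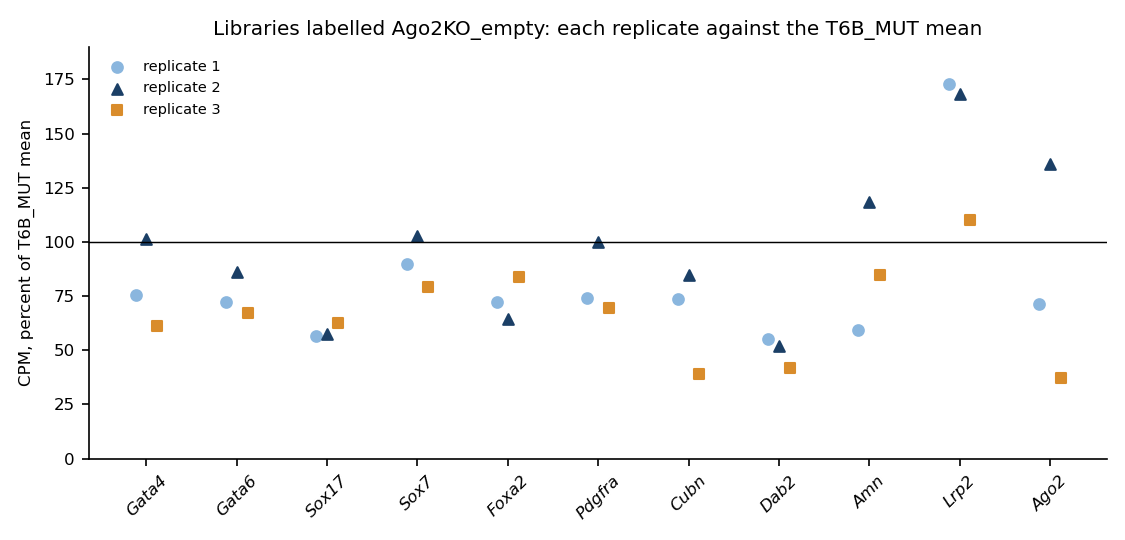
CPM as a percent of the T6B_MUT mean (vertical axis, from 0) in each of the 3 libraries labelled Ago2KO_empty, for the 10 primitive endoderm genes and Ago2 (horizontal axis). The horizontal line is 100%. Replicate 2 has Ago2 at 135.8% and Gata4 and Pdgfra near the line, while Dab2 and Sox17 lie well under it in all 3 libraries.

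With the T6B peptide, 1 of the 10 genes passed the test. Of the 10 fitted log2 fold changes against T6B_MUT, 9 ran from -1.0 to -0.01 with CPM means in the same direction. Foxa2 was fitted at -0.01, while its CPM mean was 101.3% of T6B_MUT, and with DESeq2 its fold change was above 0. The median of the 10 was -0.26. Only Sox7 was called lower (2 genes had an unadjusted p under 0.05) and 0 were called higher, against 6.69% and 9.29% of all genes (16% in either direction). The groups did not overlap for 5 lower genes and 0 higher ones (18.6% and 20.6% of all genes). Sox7 fell from 0.981, 1.06 and 1.32 CPM to 0.712, 0.496 and 0.468 CPM, without overlap (log2 fold change -1.0 ± 0.24, edgeR adjusted p = 0.00753). Gata6 was at 2.75, 2.62 and 3.59 CPM, with 1 library above the lowest T6B_MUT value of 3.48 (log2 fold change -0.42 ± 0.15, edgeR adjusted p = 0.0643). It was called when T6B_WT replicate 3 was left out (-0.58, edgeR adjusted p = 0.0230) and when only the 2 groups were fitted (-0.43, edgeR adjusted p = 0.0221). Cubn, at 4.57, 4.33 and 4.37 CPM, lay below every T6B_MUT library, yet passed only in the fit of the 2 groups alone (log2 fold change -0.41 ± 0.20 and edgeR adjusted p = 0.199 with all groups, 0.00333 with 2). Pdgfra was at 6.80, 8.35 and 8.09 CPM (log2 fold change -0.18 ± 0.13) and the means of Gata4, Sox17 and Lrp2 were at 97.5%, 99.1% and 96.0% of T6B_MUT. The T6B_WT, Trim71KO_empty and Ago2KO_empty comparisons share the T6B_MUT libraries.

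Set directly against each other, Trim71KO_empty was below Ago2KO_empty for 6 genes and above it for 1, where 31.6% of all genes were called, 16.9% lower and 14.7% higher. The groups did not overlap for these same counts, 6 lower and 1 higher (20.6% and 18.5% of all genes). Cubn was 8.34-fold lower (log2 fold change -3.06 ± 0.29, edgeR adjusted p = 1.33e-06), Gata6 3.09-fold lower (-1.63 ± 0.18, 1.60e-06) and Lrp2 2.99-fold lower (-1.58 ± 0.16, 2.26e-05). Pdgfra, Gata4 and Sox17 were lower by smaller amounts, with log2 fold changes of -1.14, -0.84 and -0.69. Sox7 was higher by 0.98 ± 0.22 (edgeR adjusted p = 0.00182). Dab2 had a log2 fold change of -0.40 ± 0.22 (edgeR adjusted p = 0.186). Without Trim71KO_empty replicate 3, in which Dab2 was at 1.51 CPM against 0.926 and 0.788 in the others, its value was -0.70 and it was called (edgeR adjusted p = 0.0245).

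The controls of the experiments stood at different levels, which are set side by side with no test. Gata4 and Lrp2 in T6B_MUT were at 100.2% and 96.6% of W, and the libraries overlap. The other 8 genes were lower in T6B_MUT than in every W library, from 77.0% of W for Pdgfra to 43.0% for Cubn, 42.4% for Foxa2 and 41.0% for Dab2. A fold change in Experiment 2 therefore starts from a lower level for these 8 genes. Experiment and plasmid cannot be told apart here.

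The other genes of the pathway were taken from lists by function, drawn up with earlier results of these data known. Most genes named from them are called genes with the largest changes, and Fgfr1 was added after its values were seen. Values after ± are standard errors. Of 11 inducing signal genes, 2 were higher and 3 lower in Trim71KO and 3 higher and 1 lower in Trim71KO_empty, where 32.6% of all genes were called in Trim71KO, 16.9% higher and 15.6% lower. Fgf4, the inducing ligand, rose with log2 fold changes of 0.34 ± 0.04 and 0.43 ± 0.06 in these 2 comparisons (edgeR adjusted p = 3.50e-05 and 6.98e-05), and fell in Ago2KO (-0.26 ± 0.04) and Ago2KO_empty (-0.29 ± 0.07; edgeR adjusted p = 0.000977 and 0.00285). Of its receptors, Fgfr1 rose in both (0.43 ± 0.06 and 0.29 ± 0.10; edgeR adjusted p = 6.71e-05 and 0.0424), while Fgfr2 fell in Trim71KO (-0.79 ± 0.12) and in Trim71KO_empty (-0.37 ± 0.11; edgeR adjusted p = 0.000170 and 0.0163). Pdgfa, which encodes a ligand of PDGFRA, rose by 0.75 ± 0.07 on the log2 scale in Trim71KO_empty (edgeR adjusted p = 1.51e-07). It was not called in Trim71KO (0.17 ± 0.08, edgeR adjusted p = 0.121). Pdgfa was also called higher in Ago2KO (0.31 ± 0.08) and Ago2KO_empty (0.23 ± 0.07, edgeR adjusted p = 0.0161 and 0.0177). Pdgfc, the other PDGF gene on the list, was called lower in Trim71KO (-0.27 ± 0.06), Ago2KO (-0.44 ± 0.06) and Ago2KO_empty (-0.31 ± 0.08). Its edgeR adjusted p were 0.00167, 7.93e-05 and 0.00888. Pdgfc was not called in Trim71KO_empty (0.01 ± 0.08, edgeR adjusted p = 0.944). In Ago2KO 18% of all genes were called, 10.2% higher and 7.78% lower, and the list had 2 and 2 of 11.

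Primitive endoderm cells secrete basement membrane. Of 13 such genes, 1 was higher and 9 were lower in Trim71KO (median log2 fold change -0.52, against 0.00 for all genes), and 3 were higher and 4 lower in Ago2KO (median 0.02). The collagen IV chains Col4a2 and Col4a1 were the lowest called in both, at -1.77 ± 0.09 and -1.47 ± 0.07 in Trim71KO and -1.44 ± 0.09 and -1.18 ± 0.07 in Ago2KO (edgeR adjusted p of 1.18e-07 or below). In Experiment 2 the list had 1 higher and 4 lower in Trim71KO_empty, led by the laminin chain Lamb1 (-0.96 ± 0.07) and the collagen chaperone Serpinh1 (-0.66 ± 0.07), with the laminin chain Lama1 higher (0.39 ± 0.08). None of the 13 was called lower in Ago2KO_empty or T6B_WT, where 3 and 4 were higher.

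Among 14 partners of the endocytic receptors, Lrpap1 stood out. It encodes the chaperone RAP that escorts megalin and its relatives, and it was 2.37-fold lower in Trim71KO (log2 fold change -1.25 ± 0.05, edgeR adjusted p = 3.55e-10) and 1.94-fold lower in Trim71KO_empty (-0.96 ± 0.07, edgeR adjusted p = 1.46e-08). The list as a whole had 5 higher and 2 lower in Trim71KO and 3 higher and 2 lower in Trim71KO_empty, with medians of 0.07 and 0.13. Of 12 visceral endoderm genes listed, 7 were found in the count table and tested. Of these 7, 2 were lower and 0 higher in both Trim71 knockout groups: Spink1 (-1.37 ± 0.16 and -0.61 ± 0.17) and Amot (-1.0 ± 0.13 and -0.53 ± 0.14). In Ago2KO_empty Amot was lower (-0.54 ± 0.14), but Spink1 (0.87 ± 0.15) and the apolipoprotein gene Apob (1.31 ± 0.15) were higher. Of the other endoderm transcription factors, named after their values were seen, Cited1 (-1.06 ± 0.28) was lower in Trim71KO, Foxa3 (-0.74 ± 0.24) was lower in Ago2KO, and Hnf4a was higher in Trim71KO_empty (0.91 ± 0.24) and Ago2KO_empty (1.40 ± 0.23). Among 13 relatives of the set's families, Kdr, a receptor tyrosine kinase related to PDGFRA, was lower in Trim71KO (-0.99 ± 0.13) and higher in Trim71KO_empty (0.76 ± 0.18), Ago2KO (1.27 ± 0.11), Ago2KO_empty (1.77 ± 0.17) and T6B_WT (1.60 ± 0.17).

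**Figure D4:**
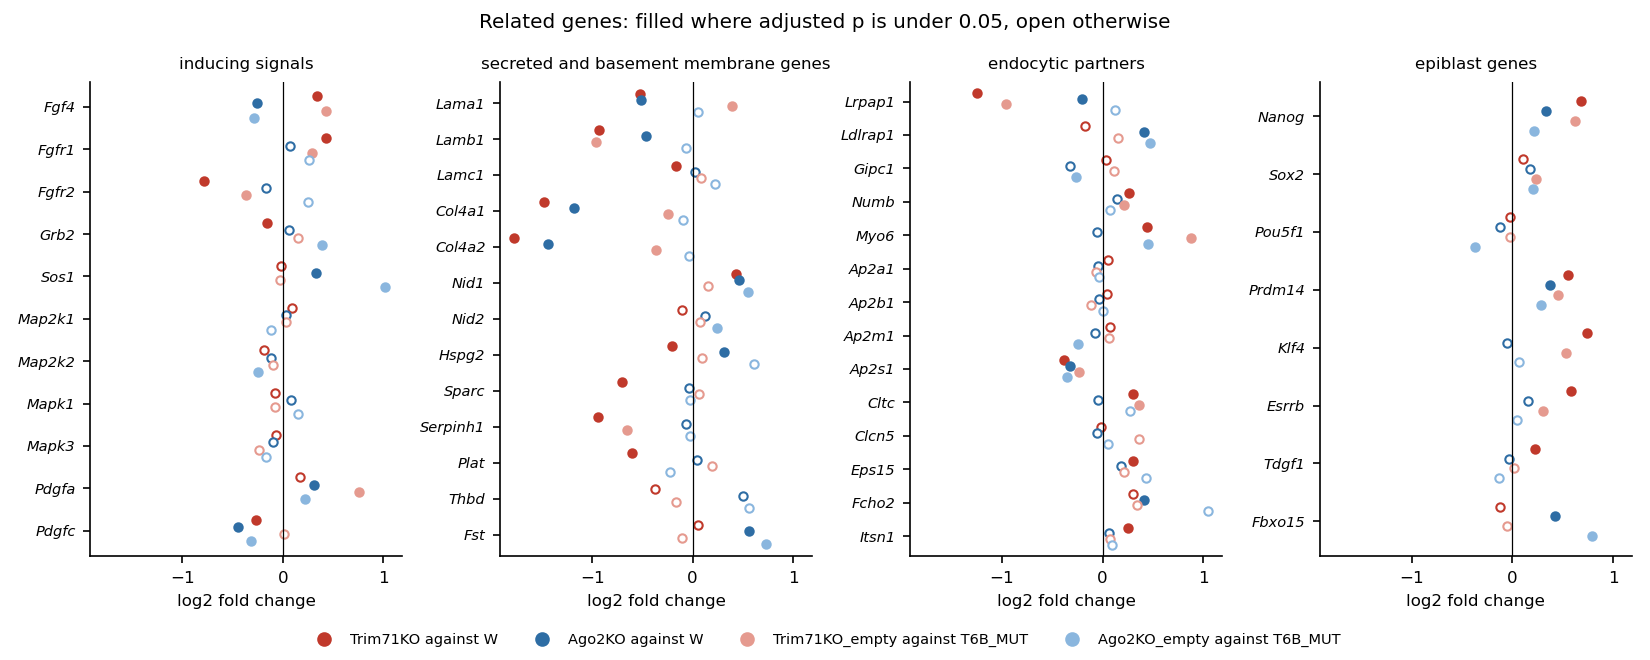
Log2 fold changes (horizontal axes) of the genes in 4 lists (rows) in 4 knockout comparisons, filled where the edgeR adjusted p is under 0.05. Col4a1 and Col4a2 lie far to the left for both Experiment 1 knockouts, Lrpap1 for both Trim71 knockout comparisons, and Nanog to the right in all 4.

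Of 8 epiblast genes, 5 were higher and 0 lower in both Trim71KO and Trim71KO_empty. Nanog, the repressor of Gata6, rose by 0.69 ± 0.05 and 0.62 ± 0.06 on the log2 scale (edgeR adjusted p = 5.78e-08 and 4.72e-07) and Klf4 by 0.74 ± 0.10 and 0.53 ± 0.07. Nanog was also called higher in Ago2KO (0.34 ± 0.05), Ago2KO_empty (0.21 ± 0.06) and T6B_WT (0.22 ± 0.06). Its edgeR adjusted p there were 0.000154, 0.0152 and 0.0204. In Ago2KO 3 of 8 were higher and 0 lower, and in Ago2KO_empty 4 were higher and 1, Pou5f1, lower (-0.37 ± 0.08). In T6B_WT 4 were higher and 1, again Pou5f1, lower (-0.24 ± 0.08). Of all genes, 16.9% were called higher in Trim71KO, 14.4% in Trim71KO_empty, 10.2% in Ago2KO, 16.4% in Ago2KO_empty and 9.29% in T6B_WT. The summed level of the 8 was 3740 to 4067 CPM in Trim71KO and 3565 to 3730 CPM in Trim71KO_empty, against 3109 to 3206 CPM in T6B_MUT.

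Markers of other lineages were low apart from the neural list, and of the 17 markers in the table none was at 0 over a whole group. The other 8 listed markers were not found by symbol in the count table, whose gene filter is not given. Their levels are therefore unknown here, and the absence of a 0 holds only for genes kept in the table. The summed level of 4 trophoblast markers was 4.46 to 6.15 CPM in W and 1.72 to 2.23 CPM in Trim71KO, with 0 of 4 called higher and 2, Ascl2 and Cdx2, lower. That of 3 fibroblast markers was 7.15 to 7.68 CPM in W and 10.5 to 11.6 CPM in Trim71KO, and 4.04 to 4.68 CPM in T6B_MUT and 8.79 to 9.38 CPM in Trim71KO_empty. Most of this was Thy1, a surface glycoprotein, which rose by 0.68 ± 0.09 and 1.21 ± 0.11 on the log2 scale. Of 2 fibroblast markers tested in Trim71KO, 1 was called higher and 1, Col1a1, lower (-0.64 ± 0.23, edgeR adjusted p = 0.0477). In Trim71KO_empty 1 of 3 was called higher and 0 lower. Of 6 mesendoderm markers, Eomes was called higher in Trim71KO (0.38 ± 0.11), Ago2KO (0.43 ± 0.11), Trim71KO_empty and Ago2KO_empty. The gene T was called lower in Trim71KO (-1.89 ± 0.44), at 0.108 CPM against 0.398 in W. The sum of the 6 was 5.21 to 5.96 CPM in W, 5.73 to 6.45 CPM in Trim71KO and 6.58 to 7.23 CPM in Ago2KO. In Experiment 2 the sum was 7.34 to 7.67 CPM in T6B_MUT and 8.40 to 9.68 CPM in T6B_WT. It was 8.57 to 10.3 CPM in Trim71KO_empty and 8.55 to 9.81 CPM in Ago2KO_empty. That of 4 neural markers was 97.2 to 110.5 CPM in W, 116.5 to 142.3 CPM in Trim71KO and 126.4 to 137.7 CPM in Ago2KO, and 89.4 to 97.2 CPM in T6B_MUT, 73.9 to 92.6 CPM in Trim71KO_empty and 92.9 to 102.3 CPM in Ago2KO_empty. Most of it was Tubb3, a neuronal tubulin gene, at 90.6 CPM in W. Of the 4, 2 were higher and 2 lower in Trim71KO, where Neurod1 was at 50.3% of W, and 0 were higher and 3 lower in Trim71KO_empty. The part of these cell types in the results was not tested.

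Reads of overlapping genes could enter some counts, since how counting treated strand is not given in the sources used here. The antisense gene Gata6os shares 93 exonic bases with Gata6 and had 31, 16 and 19 counts in W, 1, 0 and 0 in Trim71KO, 8, 13 and 11 in T6B_MUT and 0, 0 and 2 in Trim71KO_empty. It was called lower in Trim71KO_empty (edgeR adjusted p = 0.0140). These counts are small beside those of Gata6, which were 308, 325 and 319 in W. Sox17, Pdgfra, Cubn and Dab2 also overlap annotated genes on the opposite strand that were not analysed here, whereas Gata4, Sox7, Foxa2, Amn and Lrp2 overlap none.

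Likeness to Pdgfra and Cubn was measured as the root mean square difference of log2 fold changes over the 5 comparisons with a control, and is a description. Within the set, Sox17 was nearest to Pdgfra at 0.41, followed by Gata4 at 0.50, Dab2 at 0.51 and Gata6 at 0.55. Gata6 was nearest to Cubn at 0.77, followed by Sox17 at 1.01 and Pdgfra at 1.04. Lrp2 was at 1.18 from Pdgfra and 1.82 from Cubn, and Sox7 was the farthest from both, at 1.87 and 2.68. Genes of the set were measured whatever their level, and the comparisons with W served to choose the set. Their distances are therefore not ranked against those of other genes. Outside the set, genes were ranked only where they had a symbol and where, in each experiment, log2 CPM averaged 2 or more. These were 12215 genes and included 2 of the set, Pdgfra and Lrp2. Of those outside the set, Col4a2 was nearest to Pdgfra at 0.88, followed by Glipr2 at 1.03, Grhl2 and Col4a1 at 1.05 each and AU015836 at 1.08. All of these lay nearer to Pdgfra than Lrp2, which met the same limit on level. Nearest to Cubn were Glipr2 at 1.52, Tdrd12 at 1.56, Cnn2 at 1.73 and Grhl2 at 1.76.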

How the data were processed

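Total RNA libraries were made with a stranded TruSeq kit, per the labels' protocols, from 21 samples of mouse embryonic stem cells in 7 groups of 3. Groups were taken from titles and treatment labels. The submitters' processing notes name STAR 2.7.3a, bcl2fastq 2.17 and the build GRCm38 (mm10). The counting program, annotation, gene filter and use of strand are not given in the sources used here. Per the file headers, the authors deposited raw counts and RPKM for 22512 genes. The deposited RPKM equal counts divided by gene length and by a scaling size of 0.962 to 1.05 times each column's sum, and served only to compare levels between genes. Deposited lengths equal the exon union of GENCODE M21 for 98.568% of the 22480 genes found there, the 10 genes studied included.

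Raw counts were tested with edgeR 4.0.16 in R 4.3.3 (TMM scaling, robust quasi-likelihood F test, Benjamini-Hochberg adjustment over all genes tested, threshold 0.05). The 9 libraries of Experiment 1 and the 12 of Experiment 2 were fitted separately. filterByExpr with a minimum count of 10 left 21210 and 21505 genes. Scripts were tested on simulated data. Alternatives were DESeq2 1.42.0, its size factors in edgeR, other filters, a fit of the 2 groups alone, a replicate block and leaving out each library. Replicates differed by more than sampling noise (chi-square per degree of freedom 3.74 to 86.4 over 21 pairs). Same-numbered libraries of different groups did not deviate together (correlations of -0.46 to 0.46 over 27 pairs, 10 of them over 0.1), so the numbers were not taken as pairs.

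The 10 genes and all lists were chosen with earlier results of these data known. Named beside them are, from 11 lists of related genes and markers (104 genes, 89 in the table), genes taken from the up to 2 called genes with the largest change in each direction per comparison, given an average CPM of at least 1 and no overlap between groups. For likeness the 5 genes nearest to Pdgfra and to Cubn are named, from those whose log2 CPM averaged at least 2 in both experiments.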

Additional observations from a re-analysis of the deposited data

Results flagged for a closer look

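None of the 10 primitive endoderm genes was flagged, and groups of 3 libraries are too small for a search for outlying samples. For 6 related genes, every knockout library lay on one side of its control in Experiment 1 and on the other side in Experiment 2. The difference between the experiments was not tested. In Trim71KO against W and Trim71KO_empty against T6B_MUT, the log2 fold changes were -0.11 and 0.07 for the basement membrane gene Nid2. They were -0.16 and 0.08 for the laminin chain Lamc1, and -0.52 and 0.39 for Lama1. The adaptor gene Grb2 had -0.15 and 0.15, and the receptor gene Kdr -0.99 and 0.76. Sox1, a neural transcription factor, had 0.62 and -0.72, and it also had 0.37 in Ago2KO against W and -0.41 in the libraries labelled Ago2KO_empty against T6B_MUT.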

How the results depend on the processing

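In Trim71KO_empty against T6B_MUT 8 of the 10 genes were called in every alternative (8 to 8 when single libraries were left out). In Trim71KO_empty against Ago2KO_empty the count was 7, and 7 to 8 when libraries were left out. In Ago2KO_empty against T6B_MUT it was 5, but 2 when only the 2 groups were fitted (25.7% of all genes called, against 28.8%) and 2 to 6 when libraries were left out. In T6B_WT against T6B_MUT it was 1, but 3 with the 2 groups alone (where the share of all genes called went from 16% to 27.1%) and 1 to 2 when libraries were left out. With a replicate block, the pairing by number gave 4 genes in Ago2KO_empty against T6B_MUT, where Gata6 was lost (edgeR adjusted p = 0.0604), and the counts of the other comparisons did not change. The medians of Experiment 1 stayed between -2.61 and -2.49 in Trim71KO and between -2.11 and -2.05 in Ago2KO when libraries were left out. Signs turned only in values that passed no test, as follows. In T6B_WT against T6B_MUT, Foxa2 was at 0.000853 with DESeq2 and 0.023 with a replicate block. The other signs turned when a library was left out. Lrp2 in Ago2KO against W ran from -0.15 to 0.024 (without W replicate 1), Foxa2 in Trim71KO_empty against T6B_MUT from -0.67 to 0.27 (without Trim71KO_empty replicate 2), and Amn in Ago2KO_empty against T6B_MUT from -0.49 to 0.00123 (without Ago2KO_empty replicate 1). In T6B_WT against T6B_MUT, Foxa2 ran from -0.29 to 0.14, above 0 without T6B_WT replicate 1, T6B_WT replicate 2 or T6B_MUT replicate 3. There Sox17 ran from -0.077 to 0.059 (without T6B_WT replicate 1) and Gata4 from -0.097 to 0.032 (without T6B_MUT replicate 2). In Trim71KO_empty against Ago2KO_empty, Amn ran from -0.44 to 0.053, above 0 without replicate 2 of either group, and Foxa2 from -0.19 (without Trim71KO_empty replicate 3) to 0.74. The cause was not tested. Where CPM over 1 in at least 3 libraries was required, Foxa2 and Amn were not tested. Their low counts, and those of Cubn in Trim71KO_empty, limit precision.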
